A study of Mus musculus with 12 samples.

Results

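The genes of the synaptic vesicle fusion machinery were followed through RNA immunoprecipitation (RIP) of the 3 cytoplasmic YTHDF proteins from mouse neurons. They were the protein-coding genes in the list of genes tested for YTHDF1 that carry the symbols of synaptotagmins (Syt, 15 genes), syntaxins (Stx, 13), syntaxin-binding proteins (Stxbp, 7), SNAP-25 relatives (Snap23, Snap25, Snap29 and Snap47), synaptobrevins (Vamp, 4), synapsins (Syn, 3), SV2 proteins (Sv2, 3) and complexins (Cplx, 2). These were 51 genes of 55573 in the count table, and all 51 had a mean normalized count of at least 10 and were tested among 16820 genes. Primary hippocampal neurons were isolated from newborn C57BL/6 mice and cultured for 14 days without a further treatment. There were 4 groups of 3 libraries: Input (total RNA of the lysate, no antibody) and RIPs with antibodies to endogenous YTHDF1, YTHDF2 or YTHDF3. Per the methods of the study, neurons came from pooled tissue of both sexes, cytosine arabinoside was given early in culture against dividing glia, and each replicate was a lysate of 3 pooled wells divided between the RIPs. The 3 RIPs of a replicate shared their input sample. A control immunoprecipitation was not analysed here, so each value compares a RIP with Input and not with unspecific recovery.

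A synaptic vesicle fuses when synaptobrevin on its membrane zippers into a helical bundle with syntaxin and SNAP-25 on the plasma membrane. Syntaxin-binding proteins (Stxbp) hold syntaxin ready, complexins and the calcium sensor synaptotagmin set the moment of fusion, and synapsins and SV2 proteins organise and equip the vesicle. Other members of the same families drive fusion at the endoplasmic reticulum, Golgi, endosomes and autophagosomes in every cell. YTHDF proteins are readers of N6-methyladenosine (m6A), a base modification of mRNA that is most often placed within the motif DRACH, of which GGACT is a strong form.

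The total count per library ranged from 6020072 in a YTHDF2 RIP library to 38909592 in a YTHDF1 RIP library, and the 51 genes took 0.358% to 0.963% of the counts. Levels are CPM, the count scaled to a library of fixed total, after scaling by the trimmed mean of M values (TMM). Neuronal markers (Rbfox3, Tubb3, Map2, Nefl, Nefm and Dcx) were present in every library. Astrocyte markers (Gfap, Aqp4, Slc1a3, Aldh1l1 and Aldoc, 5 of 5 tested) summed to 289, 1554 and 2641 CPM in Input, 195, 806 and 1486 CPM in the YTHDF3 RIP, 300.3, 1190 and 772 CPM in the YTHDF1 RIP and 656, 1313 and 1154 CPM in the YTHDF2 RIP. The oligodendrocyte lineage list (4 of 5 tested) summed to 21.6 to 146.8 CPM in Input, 132.5 to 311.9 CPM in the YTHDF1 RIP and 204.7 to 268.1 CPM in the YTHDF2 RIP, 1 of 4 microglial markers was tested, with at most 3.61 CPM, and neither endothelial marker (Cldn5, Pecam1) passed the count minimum.

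The genes that the comparisons turned on differ in how many GGACT motifs the transcript with the longest coding sequence holds, and the last one in the coding sequence is shown for 6 of them. Coordinates are GRCm38, sequences are from GENCODE M21 transcripts, written 5′ to 3′ with the motif in capitals. Stx1a is a neuronal syntaxin of the plasma membrane, Syt1 is the fast calcium sensor, and the others are genes that were called different between RIPs.

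Stx1a, chr5:135049030-135049050, plus strand: cacgccgtGGACTacgtggag
Stx3, chr19:11781608-11781628, minus strand: tgattattGGACTgtccgttg
Syt1, chr10:108500708-108500728, minus strand: actgttttGGACTatgacaag
Syt11, chr3:88762080-88762100, minus strand: ttctccgtGGACTacaacttt
Syt14, chr1:192897359-192897379, minus strand: cagacactGGACTgcaatgaa
Stxbp5, chr10:9789392-9789412, minus strand: caccgaagGGACTgtcgtccc

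The motif of the Stx1a window lies 137 bases before the end of the coding sequence. GGACT was found in 49 of the 51 genes (96.08%) and in 91.66% of 13333 tested protein-coding genes. The median density was 0.945 per kb in the 51 genes and 1.041 per kb in all. Sv2b held 10 copies, Vamp2 held 1, and Stx2 and Snap23 held none. The motif was searched on the strand of the transcript, and its methylation was not measured here. Only 1 transcript per gene was searched, so other exonic bases and other forms of DRACH were left out. For Stx2 that transcript had 2939 bases, against 4586 exonic bases of the gene.

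Against Input, 3 of the 51 genes were enriched and 14 depleted in the YTHDF1 RIP, where 27.5% and 26.1% of all tested genes were called enriched and depleted. In the YTHDF2 RIP 6 were enriched and 10 depleted (16.1% and 19.3% of all tested genes), and in the YTHDF3 RIP 4 were enriched and 11 depleted (16.7% and 23.2%). A gene was called enriched or depleted where its log2 fold change was at least 0.32 in size, with an adjusted p of at most 0.05, in edgeR's quasi-likelihood test, with Benjamini-Hochberg adjustment over all 16820 genes. In this fit of the 4 groups together, the share of enriched members was below that of all genes in each RIP. The shares of depleted members lay close to those of all genes. With YTHDF3 and Input compared as pairs, described below, 19 of the 51 genes were enriched, against 36.5% of all tested genes. Calls are those of the 4-group fit unless pairs are named. The median log2 fold change of the 51 genes was −0.19 for YTHDF1, −0.42 for YTHDF2 and 0.02 for YTHDF3, beside 0.02, 0.02 and 0.05 over all tested genes. Scaling by library size alone moved the median over all tested genes by −0.40, 0.07 and 0.33 and gave 2 enriched and 22 depleted members for YTHDF1, 6 and 9 for YTHDF2 and 12 and 5 for YTHDF3. TMM over protein-coding genes alone gave 2 and 20 members for YTHDF1, 5 and 14 for YTHDF2 and 2 and 12 for YTHDF3. The shares of all tested genes called under these scalings are not given here. As reported, the median of the 51 genes minus that of all tested genes was −0.21, −0.44 and −0.03 for YTHDF1, YTHDF2 and YTHDF3. This difference was −0.22, −0.45 and −0.06 with library size alone and with TMM over protein-coding genes. A change of scaling moves nearly all genes alike, so it can hardly change this difference. With the trend of fold change on gene length removed, the difference was −0.45, −0.51 and −0.21. In 22, 25 and 17 of the 51 genes the RIP and Input libraries did not overlap for YTHDF1, YTHDF2 and YTHDF3, against 56.3%, 53.2% and 56.1% of all tested genes. No member was enriched in all RIPs (8.63% of all tested genes), 3 were depleted in all (Snap29, Stxbp6 and Vamp2, 14% of all), and 21 were called in none (34.3% of all). Stx3, Stx5a and Stx16 were enriched in 1 RIP and depleted in another (1.4% of all). Calls were repeated with the replicate number as a block, with the trend of fold change on gene length removed, with other scalings and count minimums and without each library, and the settings that ended a call are named beside it for the genes given in every library.

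**Figure D1:**
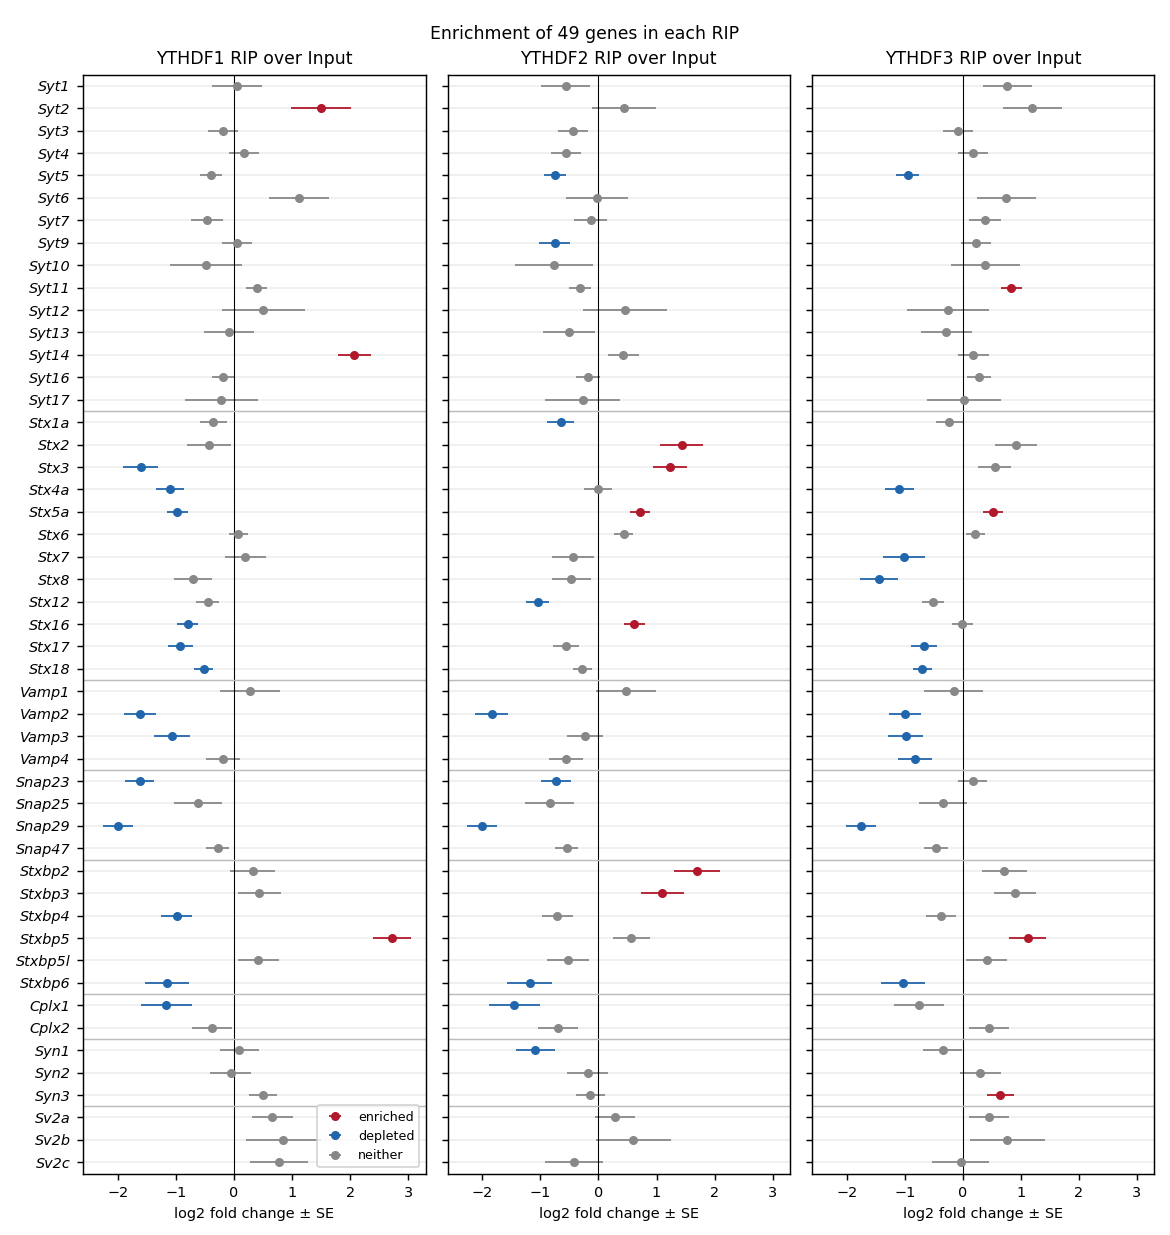
Log2 fold change of 49 of the 51 genes in the 3 RIPs over Input, grouped by family, with horizontal bars for the standard error (3 libraries per group). Red points are enriched, blue depleted and grey neither; Stxbp5 and Syt14 lie farthest right for YTHDF1, and Snap29 lies at −2.0, −2.01 and −1.75.

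Vamp2, the synaptobrevin of the synaptic vesicle, was depleted in every RIP. It stood at 518, 363 and 274 CPM in the Input libraries, 104, 139 and 133 with YTHDF1, 105, 80.7 and 137 with YTHDF2 and 232, 193 and 151 with YTHDF3. All RIP libraries lay below all Input libraries, and the YTHDF3 RIP lay above both other RIPs. The log2 fold changes over Input, given here and throughout as the estimate ± SE with 3 libraries per group, were −1.62 ± 0.28 (adjusted p = 0.000583), −1.84 ± 0.28 (adjusted p = 0.000765) and −1.0 ± 0.28 (adjusted p = 0.0129) for YTHDF1, YTHDF2 and YTHDF3 by edgeR. For YTHDF3 the call was lost without Input replicate 1 or YTHDF3 replicate 3. Vamp3 (cellubrevin), which serves recycling in most cells, was depleted in the YTHDF1 and YTHDF3 RIPs with −1.07 ± 0.31 (adjusted p = 0.0134) and −0.99 ± 0.31 (adjusted p = 0.0245), and its value for YTHDF2 was −0.24 ± 0.31. Its low Input library, 6.02 CPM in replicate 1 against 13.0 and 15.9 CPM, overlapped the YTHDF1 and YTHDF3 RIPs. Vamp4, of the trans-Golgi network and endosomes, was depleted in the YTHDF3 RIP alone, with −0.83 ± 0.29 (adjusted p = 0.0428). Vamp1, which replaces Vamp2 in other synapses, was called in no RIP and ranged from −0.16 to 0.48.

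Snap25, the plasma membrane partner of Vamp2, was called in no RIP. It stood at 398, 309 and 182 CPM in the Input libraries, 152, 163 and 264 with YTHDF1, 206, 87.6 and 202 with YTHDF2 and 326, 242 and 135 with YTHDF3. The groups overlapped in each RIP, and the log2 fold changes were −0.62 ± 0.42, −0.84 ± 0.42 and −0.34 ± 0.42. Snap29, a widely expressed relative of endosomes and autophagosomes, fell the most of the 51 genes. It stood at 41.4, 38.3 and 39.1 CPM in the Input libraries, 10.1, 13.0 and 6.67 with YTHDF1, 8.37, 12.6 and 8.64 with YTHDF2 and 14.1, 9.89 and 11.3 with YTHDF3. Every RIP library was below every Input library, and the log2 fold changes were −2.0 ± 0.26 (adjusted p = 8.99e-05), −2.01 ± 0.26 (adjusted p = 0.000405) and −1.75 ± 0.26 (adjusted p = 0.000293). Snap23, the form of non-neuronal cells, was depleted in the YTHDF1 and YTHDF2 RIPs (−1.63 ± 0.26, adjusted p = 0.000313 and −0.73 ± 0.25, adjusted p = 0.0421) at counts as low as 22. Snap47 stood at 66.8 ± 11.1 CPM per kb in Input (mean ± SD) and was called in no RIP, with log2 fold changes of −0.28 ± 0.20, −0.55 ± 0.20 and −0.46 ± 0.20.

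Stx1a, a neuronal syntaxin of the plasma membrane, stood at 137, 90.4 and 96.4 CPM in the Input libraries, 72.6, 103 and 77.6 with YTHDF1, 65.2, 73.6 and 66.9 with YTHDF2 and 119, 80.0 and 77.1 with YTHDF3, and it was depleted in the YTHDF2 RIP, with −0.65 ± 0.23 (adjusted p = 0.0431), and not called in the YTHDF1 and YTHDF3 RIPs (−0.36 ± 0.23 and −0.23 ± 0.23). The call was lost without Input replicate 1, YTHDF2 replicate 1, 2 or 3 or YTHDF3 replicate 2 and with no count minimum, the replicate block, the length trend removed or the length trend and block together.

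Stx3, Stx5a and Stx16 had opposite signs in the YTHDF1 and YTHDF2 RIPs. Stx3, a plasma membrane syntaxin with a known role in dendritic exocytosis and ribbon synapses, stood at 11.1, 11.5 and 9.11 CPM in the Input libraries, 4.51, 4.20 and 1.98 with YTHDF1, 28.4, 26.0 and 20.2 with YTHDF2 and 19.1, 14.6 and 12.8 with YTHDF3. Every YTHDF1 library was below Input and every YTHDF2 and YTHDF3 library above it. It was depleted in the YTHDF1 RIP, −1.61 ± 0.30 (adjusted p = 0.001), and enriched in the YTHDF2 RIP, 1.23 ± 0.29 (adjusted p = 0.00695), with 0.55 ± 0.28 (adjusted p = 0.148) for YTHDF3. On the log2 scale, YTHDF1 minus YTHDF2 was −2.84 ± 0.31 (adjusted p = 9.49e-05) and YTHDF1 minus YTHDF3 −2.15 ± 0.30 (adjusted p = 0.000631). Counts of Stx3 ran from 39 to 493.

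Stx5a, of transport from the endoplasmic reticulum to the Golgi, resembled Stx3 in its directions against Input. It stood at 26.0, 25.1 and 21.3 CPM in the Input libraries, 13.9, 11.1 and 11.8 with YTHDF1, 40.4, 43.4 and 35.3 with YTHDF2 and 41.6, 30.6 and 31.5 with YTHDF3. The YTHDF1 libraries lay below Input and the libraries of both other RIPs above it. The log2 fold changes were −0.98 ± 0.18 (adjusted p = 0.000891), 0.72 ± 0.18 (adjusted p = 0.00975) and 0.52 ± 0.18 (adjusted p = 0.0367), and the direct differences were −1.70 ± 0.18 (adjusted p = 8.99e-05) for YTHDF1 minus YTHDF2 and −1.50 ± 0.18 (adjusted p = 0.000275) for YTHDF1 minus YTHDF3. YTHDF2 minus YTHDF3 was 0.20 ± 0.18 (adjusted p = 0.537), with overlapping libraries. The YTHDF2 call against Input was lost with no count minimum or the length trend removed. The YTHDF3 call was lost without Input replicate 1, 2 or 3, YTHDF2 replicate 1 or YTHDF3 replicate 1 and with TMM over protein-coding genes, no count minimum, the length trend removed or the length trend and block together. Stx5a shares 1.877% of its exonic bases with a microRNA gene on the same strand. Stx16, of the trans-Golgi network, stood at 41.3, 47.9 and 35.2 CPM in the Input libraries, 20.1, 23.8 and 27.3 with YTHDF1, 70.3, 67.7 and 53.2 with YTHDF2 and 45.5, 40.3 and 38.0 with YTHDF3. It was depleted in the YTHDF1 RIP (−0.80 ± 0.18, adjusted p = 0.0035), enriched in the YTHDF2 RIP (0.62 ± 0.18, adjusted p = 0.022) and not called in the YTHDF3 RIP (−0.01 ± 0.18). The difference YTHDF1 minus YTHDF2 was −1.42 ± 0.19 (adjusted p = 0.000258). The YTHDF2 enrichment was lost without Input replicate 1 or 3 or YTHDF2 replicate 1 or 2 and with no count minimum or the length trend and block together.

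Stx2, a plasma membrane syntaxin of most cells, was enriched in the YTHDF2 RIP. It stood at 7.69, 12.7 and 14.0 CPM in the Input libraries, 9.13, 12.3 and 4.25 with YTHDF1, 35.7, 36.9 and 20.1 with YTHDF2 and 20.8, 20.5 and 23.6 with YTHDF3. The YTHDF2 and YTHDF3 libraries were above all Input libraries, and the YTHDF1 libraries overlapped Input. The log2 fold changes were −0.43 ± 0.37 (adjusted p = 0.35), 1.43 ± 0.37 (adjusted p = 0.0118) and 0.92 ± 0.37 (adjusted p = 0.0666), YTHDF1 minus YTHDF2 was −1.86 ± 0.38 (adjusted p = 0.00368), and YTHDF1 minus YTHDF3 was −1.35 ± 0.37 (adjusted p = 0.0232). The last difference lost its call without YTHDF3 replicate 2 or 3. Stx4a, of the plasma membrane, had another order. It stood at 16.1, 20.0 and 14.9 CPM in the Input libraries, 8.33, 9.39 and 6.17 with YTHDF1, 13.6, 21.2 and 16.3 with YTHDF2 and 6.37, 7.78 and 9.76 with YTHDF3. The YTHDF1 and YTHDF3 libraries were below Input, with −1.1 ± 0.25 (adjusted p = 0.00292) and −1.09 ± 0.24 (adjusted p = 0.00407), and the YTHDF2 libraries overlapped Input, with 0.00 ± 0.24. YTHDF2 exceeded YTHDF1 and YTHDF3 in direct tests: the YTHDF1 minus YTHDF2 difference was −1.1 ± 0.25 (adjusted p = 0.00661) and the YTHDF2 minus YTHDF3 difference 1.09 ± 0.24 (adjusted p = 0.0235). The YTHDF3 call against Input was lost with the length trend and block together. The first direct difference was lost without YTHDF2 replicate 2, and the second without YTHDF2 replicate 2 or 3 or YTHDF3 replicate 1 or 2 and with library size alone, no count minimum, the length trend removed or the length trend and block together.

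**Figure D2:**
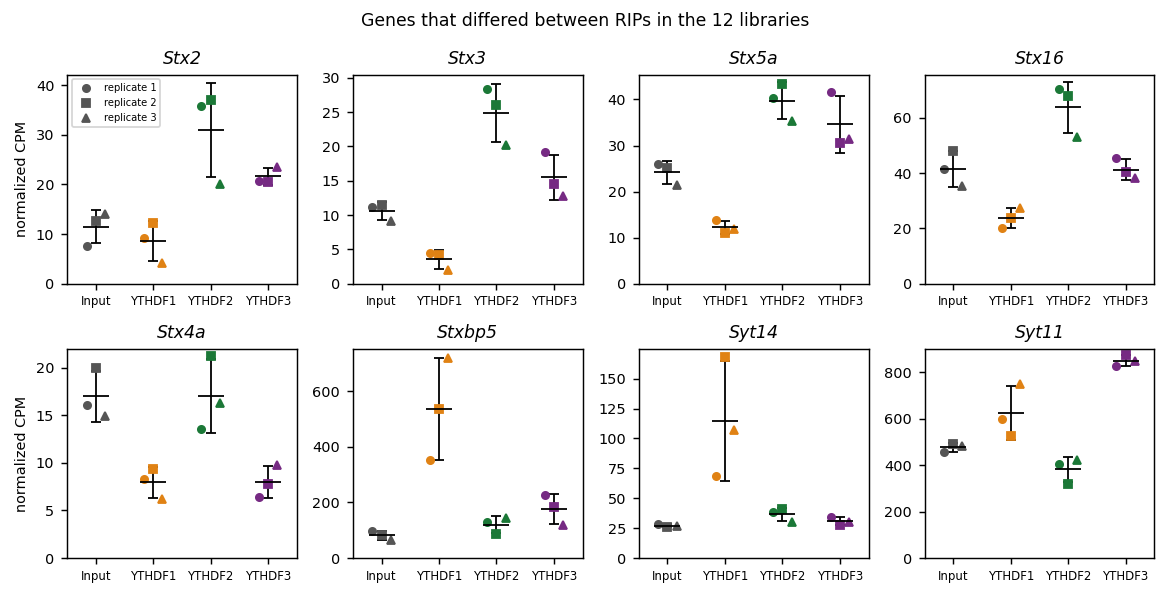
Normalized CPM (linear axis from 0) of 8 genes in the 3 libraries of each group, with marker shape for the replicate number and bars for mean ± SD. The means of Stx2, Stx3, Stx5a and Stx16 were highest in the YTHDF2 RIP, without a call against the YTHDF3 RIP. Those of Stxbp5 and Syt14 were highest in the YTHDF1 RIP and that of Syt11 in the YTHDF3 RIP. Stx4a was lower in the YTHDF1 and YTHDF3 RIPs than in Input.

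The endosomal syntaxins Stx7, Stx8 and Stx12 were lower in RIPs where they were called. Stx7, of late endosomes, stood at 104, 87.9 and 106 CPM in the Input libraries, 50.6, 195 and 96.0 with YTHDF1, 81.7, 76.4 and 62.2 with YTHDF2 and 49.6, 48.2 and 49.8 with YTHDF3. YTHDF1 replicate 2 stood apart at 195 CPM, and the YTHDF3 libraries were all below Input. The YTHDF3 value was −1.02 ± 0.36 (adjusted p = 0.0427) and the YTHDF1 minus YTHDF3 difference 1.21 ± 0.36 (adjusted p = 0.0337), the first lost without Input replicate 1, 2 or 3, YTHDF2 replicate 1, 2 or 3 or YTHDF3 replicate 1, 2 or 3 and with library size alone, the replicate block or the length trend and block together and the second without Input replicate 3, YTHDF1 replicate 2 or 3 or YTHDF3 replicate 1, 2 or 3 and with library size alone, TMM over protein-coding genes, the replicate block, the length trend removed or the length trend and block together. Stx8 was depleted in the YTHDF3 RIP (−1.44 ± 0.33, adjusted p = 0.00498) and Stx12, of recycling endosomes, in the YTHDF2 RIP (−1.05 ± 0.20, adjusted p = 0.0022). Stx17, of autophagosomes, and Stx18, of the endoplasmic reticulum, were depleted in the YTHDF1 RIP (−0.92 ± 0.22, adjusted p = 0.00454 and −0.52 ± 0.16, adjusted p = 0.018) and in the YTHDF3 RIP (−0.67 ± 0.22, adjusted p = 0.0297 and −0.70 ± 0.16, adjusted p = 0.00522). Of the 13 syntaxins, 0 were enriched and 7 depleted with YTHDF1, 4 enriched and 2 depleted with YTHDF2, and 1 enriched and 5 depleted with YTHDF3, where 27.5% and 26.1%, 16.1% and 19.3%, and 16.7% and 23.2% of all tested genes were called. At an unadjusted p below 0.05, 18, 21 and 20 of all 51 genes passed in the YTHDF1, YTHDF2 and YTHDF3 RIPs, in either direction, against 58.9%, 45.5% and 48.1% of all tested genes.

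Among syntaxin-binding proteins, Stxbp5 (tomosyn), which occupies syntaxin and SNAP-25 in place of synaptobrevin and lowers release, had the log2 fold change over Input farthest from 0 among the 51 genes, before gene length was taken into account. It stood at 97, 82.8 and 64.3 CPM in the Input libraries, 354, 536 and 719 with YTHDF1, 129, 87.0 and 145 with YTHDF2 and 226, 184 and 119 with YTHDF3. All YTHDF1 libraries were above all others, the YTHDF3 libraries were above Input, and the YTHDF2 libraries overlapped it. The YTHDF1 enrichment was 2.72 ± 0.33 (adjusted p = 6.38e-05), which is a fold of 6.59, the YTHDF3 enrichment 1.12 ± 0.32 (adjusted p = 0.0151), and the YTHDF2 value 0.56 ± 0.31 (adjusted p = 0.185). YTHDF1 exceeded YTHDF2 by 2.16 ± 0.33 (adjusted p = 0.000615) and YTHDF3 by 1.60 ± 0.32 (adjusted p = 0.00456). The YTHDF3 call was lost without YTHDF3 replicate 1 and with the length trend removed or the length trend and block together, and the difference from YTHDF3 fell under a fold of 2 with library size alone, the length trend removed or the length trend and block together. The paralogue Stxbp5l was called in no RIP in the 4-group fit, with 0.42 ± 0.35, −0.53 ± 0.36 and 0.41 ± 0.35, but was enriched as YTHDF3 and Input pairs.

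Stxbp2 and Stxbp3, syntaxin-binding proteins also found in many other tissues, were enriched in the YTHDF2 RIP, with 1.70 ± 0.39 (adjusted p = 0.00623) and 1.1 ± 0.37 (adjusted p = 0.0382), at Input counts of 32 to 76. Stxbp6 (amisyn), which carries a SNARE motif without a membrane anchor, stood at 13.5, 26.2 and 15.5 CPM in the Input libraries, 4.97, 9.39 and 10.2 with YTHDF1, 12, 5.68 and 6.62 with YTHDF2 and 6.13, 11.7 and 9.23 with YTHDF3. Input replicate 2 was the highest library, and every RIP library was below the lowest Input library. The log2 fold changes were −1.15 ± 0.38 (adjusted p = 0.0241), −1.19 ± 0.39 (adjusted p = 0.034) and −1.03 ± 0.38 (adjusted p = 0.0484). The calls were lost without Input replicate 2 or YTHDF1 replicate 1 for YTHDF1, without Input replicate 2 or YTHDF2 replicate 2 or 3 and with the replicate block for YTHDF2 and without Input replicate 2 or 3, YTHDF1 replicate 2 or 3, YTHDF2 replicate 2 or 3 or YTHDF3 replicate 1, 2 or 3 and with DESeq2 size factors, library size alone, the replicate block or the YTHDF3 and Input libraries alone, unpaired for YTHDF3. Stxbp4 was depleted in the YTHDF1 RIP, with −0.99 ± 0.26 (adjusted p = 0.00845).

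Of the 15 synaptotagmins, 2 were enriched and 0 depleted in the YTHDF1 RIP, 0 enriched and 2 depleted in the YTHDF2 RIP, and 1 enriched and 1 depleted in the YTHDF3 RIP, beside 27.5% and 26.1%, 16.1% and 19.3%, and 16.7% and 23.2% of all tested genes. Syt14, which lacks the calcium-binding residues of the family, stood at 28.6, 26.3 and 26.6 CPM in the Input libraries, 68.5, 168 and 107 with YTHDF1, 38.3, 41.3 and 30.4 with YTHDF2 and 34.5, 27.8 and 30.1 with YTHDF3. Each YTHDF1 library was above every other library, and Input was narrow. The YTHDF1 enrichment was 2.07 ± 0.28 (adjusted p = 0.000113), a fold of 4.21, and YTHDF1 exceeded YTHDF2 by 1.64 ± 0.28 (adjusted p = 0.00116) and YTHDF3 by 1.89 ± 0.28 (adjusted p = 0.000784). The values for YTHDF2 and YTHDF3 against Input were 0.43 ± 0.27 and 0.18 ± 0.27. Syt11, a synaptotagmin without calcium binding that acts in vesicle retrieval, stood at 455, 491 and 485 CPM in the Input libraries, 597, 527 and 751 with YTHDF1, 404, 319.5 and 423 with YTHDF2 and 828, 873 and 849 with YTHDF3. The YTHDF3 libraries lay close together and above all others, the YTHDF2 libraries below Input. It was enriched in the YTHDF3 RIP (0.83 ± 0.19, adjusted p = 0.00406), and YTHDF2 minus YTHDF3 was −1.15 ± 0.19 (adjusted p = 0.00702). The YTHDF1 and YTHDF2 values against Input were 0.39 ± 0.18 and −0.32 ± 0.18.

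Syt1, the calcium sensor of fast release, stood at 668, 482 and 286 CPM in the Input libraries, 478, 345 and 664 with YTHDF1, 372, 183 and 414 with YTHDF2 and 1157, 829 and 459 with YTHDF3. The Input and RIP libraries overlapped in every comparison, and the log2 fold changes were 0.05 ± 0.42, −0.57 ± 0.43 and 0.77 ± 0.43. Syt2, the corresponding sensor of other brain regions, was the lowest of the 51 genes in Input, at 0.135 ± 0.00883 CPM per kb and counts of 10 to 14, and was enriched in the YTHDF1 RIP with 1.49 ± 0.52 (adjusted p = 0.0287). Syt5 was depleted in the YTHDF2 and YTHDF3 RIPs (−0.75 ± 0.19, adjusted p = 0.0109 and −0.95 ± 0.19, adjusted p = 0.00225) and Syt9 in the YTHDF2 RIP (−0.76 ± 0.27, adjusted p = 0.048). Syt7, the sensor of slow release, and Syt4 were called in none in the 4-group fit, with values between −0.56 and 0.38. As YTHDF3 and Input pairs, Syt7 was enriched and Syt4 was not called.

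The complexins, small proteins that clamp and then promote fusion, split by gene. Cplx1 stood at 381, 245 and 167 CPM in the Input libraries, 104, 93.6 and 155 with YTHDF1, 109, 57.9 and 123 with YTHDF2 and 249, 137 and 82.2 with YTHDF3. It was depleted in the YTHDF1 and YTHDF2 RIPs, with −1.17 ± 0.44 (adjusted p = 0.0404) and −1.45 ± 0.44 (adjusted p = 0.0241), and had −0.76 ± 0.43 (adjusted p = 0.186) for YTHDF3. The first call was lost without Input replicate 1 or 2, YTHDF1 replicate 1 or 2, YTHDF2 replicate 1 or YTHDF3 replicate 2 and with the length trend removed or the length trend and block together and the second without Input replicate 1 or YTHDF2 replicate 1 or 2 and with the length trend removed or the length trend and block together. Cplx2, the highest of the 51 genes in Input at 146 ± 51.5 CPM per kb, stood at 960.4, 738 and 455 CPM in the Input libraries, 508, 579 and 575 with YTHDF1, 625, 336 and 363 with YTHDF2 and 1373, 946 and 636 with YTHDF3. Cplx2 was called in none in the 4-group fit, with −0.37 ± 0.35, −0.70 ± 0.35 and 0.46 ± 0.35, but was enriched as YTHDF3 and Input pairs. Cplx1, Syn1 and Vamp2 followed Cplx2 in Input at 121 ± 49.7, 109 ± 30.5 and 101 ± 32.3 CPM per kb (mean ± SD), and these SDs span the gaps between the 4 genes. Syt11, next at 91.6 ± 3.70, had the narrowest spread of the 5.

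Synapsins tie vesicles into the reserve pool. Syn1 stood at 459.6, 359 and 258 CPM in the Input libraries, 283, 342 and 519 with YTHDF1, 156, 113 and 238 with YTHDF2 and 367, 268 and 212 with YTHDF3. The YTHDF2 libraries were below all Input libraries, with −1.09 ± 0.34 (adjusted p = 0.028), and the YTHDF1 value was 0.09 ± 0.34. YTHDF1 exceeded YTHDF2 by 1.18 ± 0.34 (adjusted p = 0.0243). The YTHDF2 call was lost without Input replicate 1 or 2 or YTHDF2 replicate 1 or 2 and with the length trend and block together, and the direct difference without YTHDF1 replicate 3 or YTHDF2 replicate 1 or 2 and with library size alone. Syn2 stood at 448, 314 and 233 CPM in the Input libraries, 273, 251 and 429.9 with YTHDF1, 283, 220.4 and 372 with YTHDF2 and 582, 398 and 248 with YTHDF3. It was called in none in the 4-group fit, with −0.06 ± 0.35, −0.18 ± 0.35 and 0.30 ± 0.35, but was enriched as YTHDF3 and Input pairs. Syn3 stood at 8.08, 10.1 and 11.4 CPM in the Input libraries, 14.7, 15.5 and 11.4 with YTHDF1, 8.24, 12.3 and 6.40 with YTHDF2 and 15.0, 14.8 and 16.4 with YTHDF3. The YTHDF3 libraries were above Input, with 0.65 ± 0.24 (adjusted p = 0.0492), a call lost without Input replicate 1 or 2, YTHDF1 replicate 1, YTHDF2 replicate 1 or YTHDF3 replicate 1, 2 or 3 and with TMM over protein-coding genes, no count minimum, the replicate block, the length trend removed or the length trend and block together. The 3 SV2 genes, whose proteins are glycoproteins of the vesicle membrane, were called in no RIP in the 4-group fit. As YTHDF3 and Input pairs, described below, Sv2a and Sv2b were enriched and Sv2c was not called.

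Sv2a stood at 234, 183 and 110.0 CPM in the Input libraries, 252, 217 and 361 with YTHDF1, 246, 131 and 265 with YTHDF2 and 312, 241 and 169 with YTHDF3. Sv2b stood at 226, 149.7 and 81.2 CPM in the Input libraries, 194, 105 and 522 with YTHDF1, 214, 94.8 and 383 with YTHDF2 and 363, 285 and 128 with YTHDF3. For Sv2b the highest and lowest library of the YTHDF1 RIP differed more than the groups did, and the SE was 0.65. The log2 fold changes were 0.65 ± 0.35, 0.28 ± 0.35 and 0.45 ± 0.35 for Sv2a and 0.84 ± 0.65, 0.60 ± 0.64 and 0.76 ± 0.64 for Sv2b.

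10 core release genes (Snap25, Syt1, Stx1a, Vamp2, Syn1, Syn2, Sv2a, Sv2b, Cplx1 and Cplx2) varied together between the libraries of Input and between those of the YTHDF3 RIP. In Input, replicate 1 was the highest library for 10 of 10 and replicate 3 the lowest for 9. In the YTHDF3 RIP, replicate 1 was the highest for 10 of 10 and replicate 3 the lowest for 10. The order was less uniform in the YTHDF1 RIP, with replicate 3 highest for 7 and replicates 1 and 2 lowest for 5 each. For YTHDF2, replicate 3 was highest for 7 and replicate 2 lowest for 9. The share of all tested genes with such an order was not counted, so the order is not shown to be particular to these genes. Over all tested genes, same-numbered Input and YTHDF3 libraries also deviated together, with correlations of 0.539 to 0.835. The summed level of the 10 core release genes was 4430, 3234 and 2142 CPM in Input, 5079, 3619 and 2296 CPM in the YTHDF3 RIP, 2420, 2337 and 3700 CPM in the YTHDF1 RIP and 2381, 1378 and 2565 CPM in the YTHDF2 RIP. The summed neuronal markers were 3160, 2492 and 2615 CPM in Input and 4601, 3472 and 2887 CPM in the YTHDF3 RIP. Excitatory markers (Slc17a7, Neurod6, Prox1 and Camk2a) summed to 1837, 1586 and 843 CPM in Input and 2144, 1639 and 1026 CPM in the YTHDF3 RIP. Inhibitory markers (Gad1, Gad2 and Slc32a1) summed to 553, 415 and 155.5 CPM in Input and 652, 397.5 and 150.5 CPM in the YTHDF3 RIP. The summed astrocyte markers were lowest in replicate 1 and highest in replicate 3 of both groups. The part of any of these lists in the differences was not tested. In such bulk libraries, fewer neurons and less of these RNAs per neuron cannot be told apart.

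**Figure D3:**
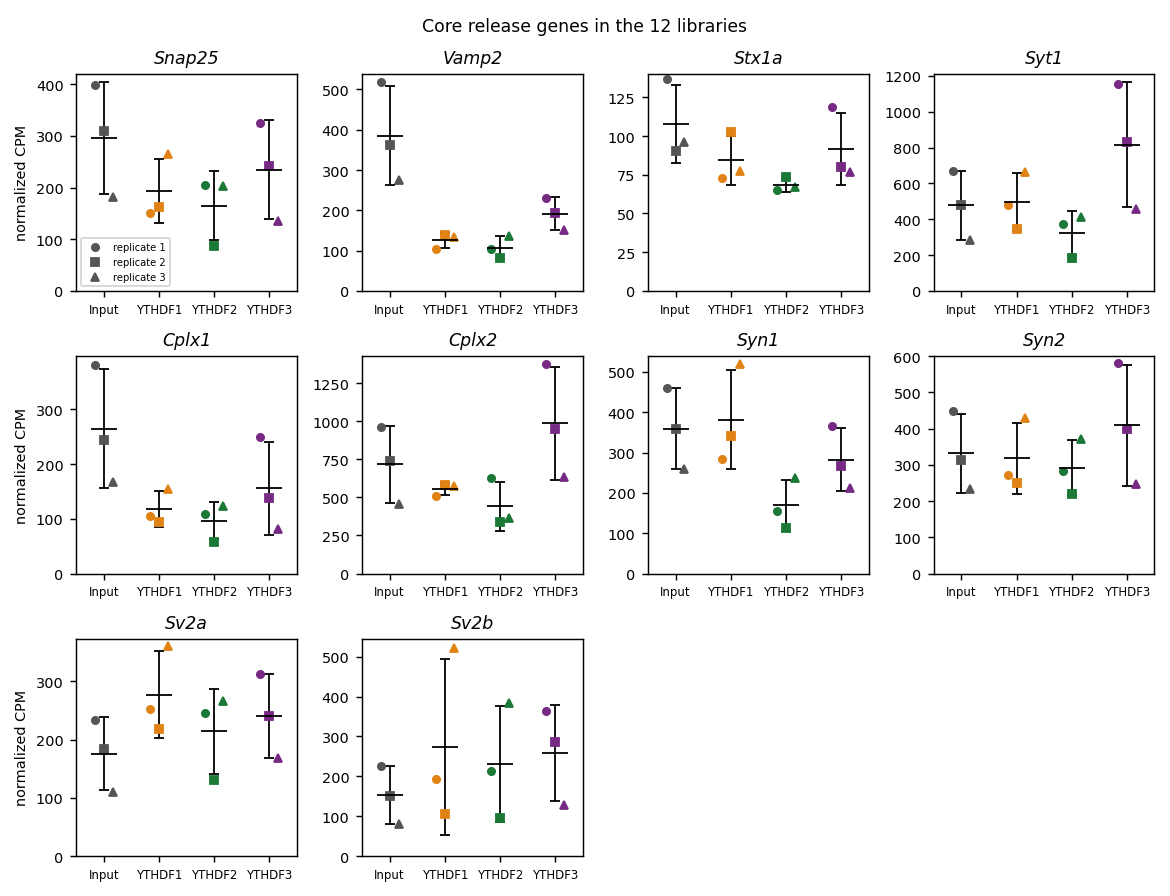
Normalized CPM (linear axis from 0) of 10 core release genes in the 3 libraries of each group, with marker shape for the replicate number and bars for mean ± SD. Replicate 1 is the highest library of Input and of the YTHDF3 RIP in all 10 panels, and only Vamp2 has every RIP library below every Input library in all RIPs.

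Libraries of Input and the YTHDF3 RIP that share a replicate number deviated from their group means together, with correlations of 0.539 to 0.835 over the tested genes, and so YTHDF3 was also compared with Input as pairs, in a fit of these 6 libraries chosen after seeing the data. In that fit 19 of the 51 genes were enriched (36.5% of all tested genes) and 15 depleted (32.3%), beside 7 (22.2%) and 9 (24.5%) in the same libraries unpaired. Within replicates, 24 genes were above and 20 below their own input in all 3 pairs (42.1% and 39.6% of all tested genes), and 7 changed sign between pairs (18.3%). The core release genes named above divided evenly. Syt1 had log2 ratios of 0.79, 0.78 and 0.69 in replicates 1, 2 and 3, and its paired log2 fold change was 0.81 ± 0.10 (adjusted p = 1.92e-07). Cplx2 had 0.52, 0.36 and 0.49 and Sv2b 0.68, 0.93 and 0.66, with paired values of 0.51 ± 0.10 (adjusted p = 0.000119) and 0.81 ± 0.10 (adjusted p = 1.99e-07). Sv2a and Syn2 rose too, with 0.53 ± 0.10 (adjusted p = 5.04e-05) and 0.33 ± 0.10 (adjusted p = 0.0044).

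On the other side, Vamp2 had log2 ratios of −1.16, −0.91 and −0.86 and Cplx1 had −0.62, −0.84 and −1.02, with paired values of −0.92 ± 0.11 (adjusted p = 5.75e-08) and −0.76 ± 0.09 (adjusted p = 1.55e-07). Snap25, Syn1 and Stx1a were below their input in each pair and were not called, Snap25 and Syn1 because the paired change of −0.30 and −0.29 was under the fold threshold. Genes enriched in the 4-group fit had the same direction as pairs, with 1.15 ± 0.10 (adjusted p = 2.89e-10) for Stxbp5, 0.89 ± 0.10 (adjusted p = 4.43e-08) for Syt11, 0.71 ± 0.12 (adjusted p = 1.45e-05) for Syn3 and 0.56 ± 0.10 (adjusted p = 3.94e-05) for Stx5a. So had the depleted genes Snap29 at −1.71 ± 0.10 (adjusted p = 1.58e-12), Stx7 at −0.95 ± 0.10 (adjusted p = 1.04e-08), Stx4a at −1.05 ± 0.15 (adjusted p = 1.14e-06) and Stxbp6 at −0.96 ± 0.13 (adjusted p = 5.12e-07). Stx2 and Stx3 were enriched as pairs, with 1.00 ± 0.12 (adjusted p = 1.75e-07) and 0.59 ± 0.12 (adjusted p = 0.00013). The 4-group fit had not called these for YTHDF3.

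**Figure D4:**
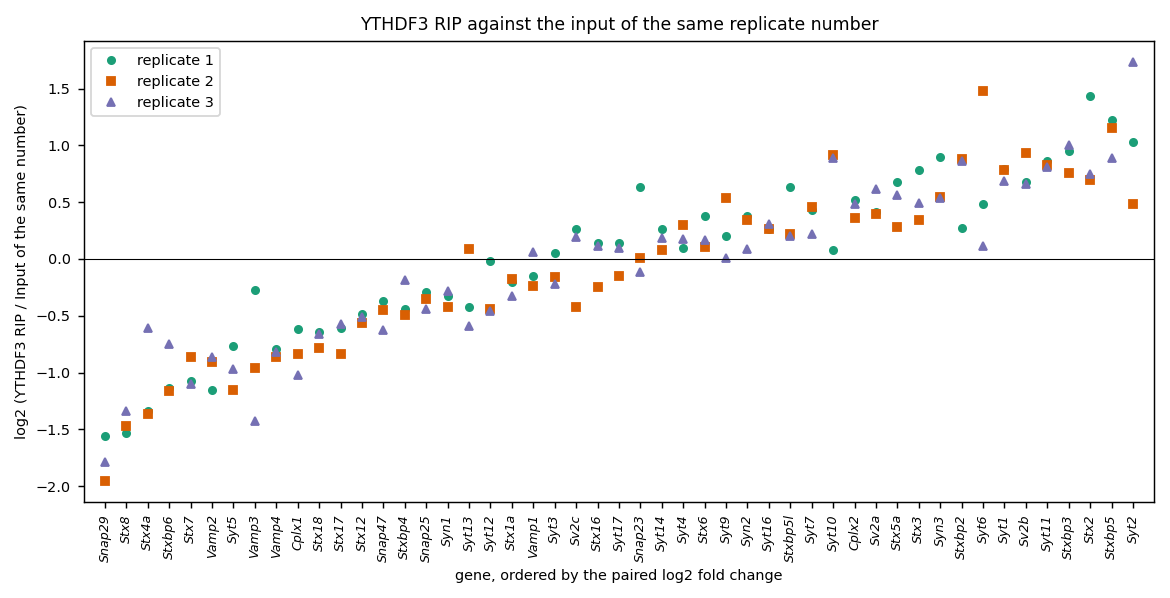
Log2 ratio of the YTHDF3 RIP to the Input library of the same replicate number for 49 of the 51 genes, ordered by the paired log2 fold change, with 1 marker per replicate. For 23 of these all markers lie above 0 and for 19 all lie below, with Snap29 at the left end.

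Between RIPs, calls needed a difference of at least 2-fold and the same adjusted p. Comparing YTHDF1 with YTHDF2, 3 of the 51 genes were higher with YTHDF1 (Stxbp5, Syn1 and Syt14, 11.4% of all tested genes) and 6 lower (Stx16, Stx2, Stx3, Stx4a, Stx5a and Stxbp2, 6.13%). With YTHDF3 as the comparison, 3 were higher with YTHDF1 (Stx7, Stxbp5 and Syt14, 11%) and 4 lower (Snap23, Stx2, Stx3 and Stx5a, 3.62%). YTHDF2 and YTHDF3 differed for Stx4a, which was higher with YTHDF2 (3.97% of all tested genes), and for Syt11, which was lower (1.17%). Stxbp2 was at 5.67, 5.41 and 2.20 CPM in the YTHDF1 RIP and 11, 14.4 and 8.64 CPM in the YTHDF2 RIP, a difference of −1.38 ± 0.38 (adjusted p = 0.0201). Snap23 was at 2.54, 3.84 and 2.52 CPM with YTHDF1 and 11.7, 9.41 and 9.89 CPM with YTHDF3, a difference of −1.80 ± 0.25 (adjusted p = 0.000676). The libraries did not overlap for 19, 14 and 21 genes in the YTHDF1 and YTHDF2, YTHDF1 and YTHDF3, and YTHDF2 and YTHDF3 comparisons, against 37.1%, 33.3% and 36.1% of all tested genes.

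Other genes of the vesicle cycle were counted by list, to be read against 27.5% and 26.1%, 16.1% and 19.3%, and 16.7% and 23.2% of all tested genes called enriched and depleted with YTHDF1, YTHDF2 and YTHDF3. Among 16 other SNAREs and disassembly factors, 1, 0 and 1 were enriched and 10, 8 and 8 depleted with YTHDF1, YTHDF2 and YTHDF3. Use1, a SNARE of retrieval to the endoplasmic reticulum, was lowest with YTHDF1 at −2.34 ± 0.31 (adjusted p = 0.000112), and Vti1b was depleted in all RIPs, with −1.65 ± 0.29 (adjusted p = 0.000665), −1.63 ± 0.29 (adjusted p = 0.00167) and −1.84 ± 0.29 (adjusted p = 0.000506). Sec22b, of transport between the endoplasmic reticulum and Golgi, was enriched with YTHDF1, 1.63 ± 0.37 (adjusted p = 0.00303), and depleted with YTHDF2 and YTHDF3, −1.32 ± 0.37 (adjusted p = 0.0177) and −1.25 ± 0.36 (adjusted p = 0.0176). Among 10 priming factors and calcium regulators, 4, 4 and 5 were enriched and 1 was depleted in each RIP. Unc13c, which opens syntaxin during priming, was enriched in all, with 1.84 ± 0.39 (adjusted p = 0.002), 1.15 ± 0.39 (adjusted p = 0.0395) and 1.50 ± 0.38 (adjusted p = 0.00874), as was Unc13a, and Snapin was the depleted gene, with −2.08 ± 0.19 (adjusted p = 1.04e-05), −1.37 ± 0.19 (adjusted p = 0.000456) and −1.1 ± 0.18 (adjusted p = 0.000606).

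Of 14 vesicle membrane proteins and transporters, 13 were tested and none was enriched, while 2, 2 and 1 were depleted. Syngr3 was depleted in all RIPs, with −1.57 ± 0.33 (adjusted p = 0.00222), −1.64 ± 0.34 (adjusted p = 0.00348) and −1.16 ± 0.33 (adjusted p = 0.0155), and Syp (synaptophysin) in none, with −0.47, −0.71 and −0.65. Among 20 endocytosis genes, 8, 2 and 4 were enriched and 5, 3 and 5 depleted. Cltc, the clathrin heavy chain, was enriched in all RIPs, with 2.02 ± 0.28 (adjusted p = 0.000147), 0.87 ± 0.27 (adjusted p = 0.0279) and 0.93 ± 0.27 (adjusted p = 0.0183), and the small adaptor subunit Ap2s1 was depleted in all, with −2.05 ± 0.25 (adjusted p = 6.38e-05), −1.91 ± 0.25 (adjusted p = 0.000408) and −2.68 ± 0.26 (adjusted p = 3.93e-05).

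Genes with more exonic bases had higher log2 fold changes, among the 51 genes as over all genes. Spearman's correlation of exonic length with the log2 fold change was 0.441, 0.424 and 0.446 over the 51 genes for YTHDF1, YTHDF2 and YTHDF3 and 0.463, 0.384 and 0.528 over all 16820, a description across genes measured in the same libraries. With the length of the transcript searched for GGACT, the relation was weaker among the members. These correlations were 0.40, 0.07 and 0.26 over the 51 genes and 0.61, 0.41 and 0.62 over 13333 protein-coding genes. Of 16 members under 4 kb, 0, 1 and 0 were enriched and 6, 8 and 5 depleted in the YTHDF1, YTHDF2 and YTHDF3 RIPs, where 14.8%, 7.92% and 6.04% of all genes of that length were enriched and 39.1%, 28.9% and 38.3% depleted. Of 19 members of 4 to 6 kb, 0, 5 and 2 were enriched (29%, 19.8% and 18.1% of all) and 7, 2 and 5 depleted (18%, 12.2% and 11.6%). Of 16 members of 6 kb or more, 3, 0 and 2 were enriched (49.4%, 28.1% and 35.1% of all) and 1, 0 and 1 depleted (8.63%, 7.04% and 4.74%). Stxbp5 (16.5 kb) and Syt14 (11.9 kb) were among the longest, and Vamp2 and Snap29 had 3.81 and 3.45 kb. With the length trend removed, the YTHDF1 values of Stxbp5 and Syt14 were 1.35 and 1.04 and stayed called, while the YTHDF3 value of Stxbp5 was 0.38 and was not called, and the difference of Stxbp5 between YTHDF1 and YTHDF3 was under a fold of 2. Stx3 (5.71 kb) and Stx5a (5.81 kb) had opposite signs in the YTHDF1 and YTHDF2 RIPs, and with the length trend removed the YTHDF2 value of Stx5a was 0.49 and not called. The number of GGACT per transcript had Spearman correlations of 0.26, 0.06 and 0.09 with the log2 fold change over the 51 genes and 0.44, 0.37 and 0.47 over 13333 protein-coding genes. The density of GGACT had −0.12, −0.07 and −0.19 over the 51 genes and 0.01, 0.10 and 0.05 over all. Stx2, with no GGACT in the transcript searched, was enriched in the YTHDF2 RIP, and its other exonic bases were not searched.

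**Figure D5:**
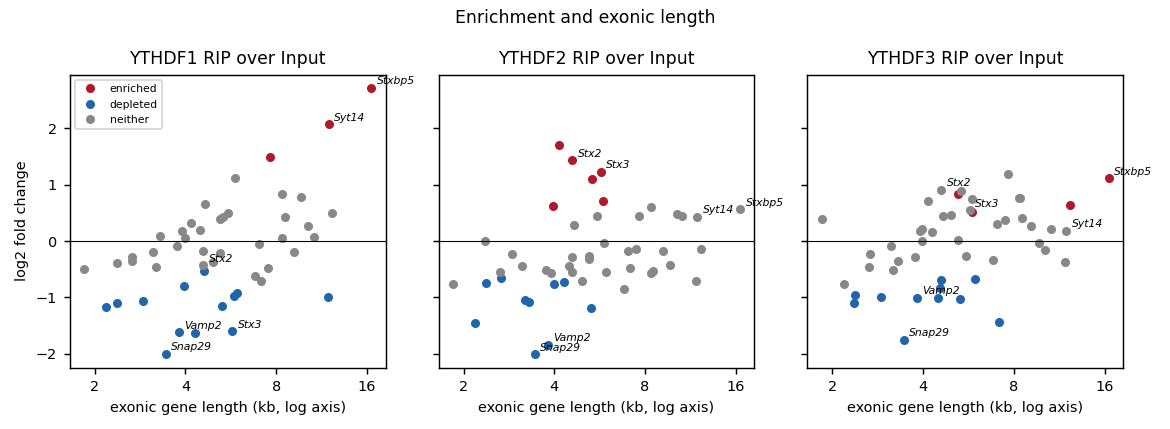
Log2 fold change over Input against exonic gene length (kb, log axis) for 49 of the 51 genes in each RIP; red points are enriched, blue depleted and grey neither. For YTHDF2, 8 of 10 depleted genes are under 4 kb.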

How the data were processed

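RNA of 3 Input libraries and 3 libraries per YTHDF RIP was analysed. Per the methods and the labels, libraries were stranded and carried molecular identifiers. The authors trimmed reads (cutadapt 3.4), aligned them to GRCm38 (mm10; STAR 2.7.7a), removed duplicates (UMI-tools 1.1.1) and deposited raw counts per gene (featureCounts 2.0.1, Ensembl 97, strand setting 2). Reads with several alignments or overlapping several genes were counted for each, so related genes can share counts. The authors' DESeq2 tables per protein were used for the gene list alone. Their fold changes and p-values were not used.

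Genes with a mean count of at least 10 after median-ratio scaling (16820) entered 1 edgeR 4.0.16 quasi-likelihood model in R 4.3.3 with 4 groups and TMM scaling. A trial on simulated counts drew each library independently and changed few genes, so it covered neither spread shared between libraries nor many changed genes. Same-numbered libraries deviated from their group means together for Input and YTHDF3 (correlations 0.539 to 0.835), not for Input and YTHDF1 (−0.329 to 0.0895) or YTHDF2 (−0.326 to 0.186). Per the methods, the RIPs of a replicate shared an input sample, but the labels do not say what the numbers mark. The 4-group model has no term for such pairs, so any spread between lysates enters its error. Its p-values measure the spread between these libraries. Alternatives were DESeq2 1.42.0, other scalings, filters of 50 or none, a length trend (loess span 0.3), the block and leaving out each library. Full values are given for 10 core release genes, the 4 highest and lowest called genes per RIP and the 2 per direction and pair of RIPs with a mean count of at least 100. The counts cover all 51 members, and values of 2 members are not reported here. The members and lists were chosen with earlier results of these data known.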

Additional observations from a re-analysis of the deposited data

Results flagged for a closer look

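Stx3, Stx5a and Stx16 were depleted in the YTHDF1 RIP and enriched in the YTHDF2 RIP against the same Input, and Stx5a was also enriched in the YTHDF3 RIP. The enrichments of Stx5a and Stx16 did not pass under every setting. For Stx3 the difference between the YTHDF1 and YTHDF2 RIPs was −2.84 (log2), with every YTHDF1 library below and every YTHDF2 library above Input. For Stx5a it was −1.70 against YTHDF2 and −1.50 against YTHDF3. For Stx16 it was −1.42 against YTHDF2. Each difference was past the threshold in the direct edgeR contrast of the RIP groups. The comparisons share the Input libraries.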

How the results depend on the processing

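Depth limits the genes with low counts, such as Syt2, with 6 to 108 counts per library. Each group had 3 libraries, and the common biological coefficient of variation was 0.322. Reads with several alignments or genes were counted for each, and no control antibody was analysed here.

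The number of enriched members was 4 for YTHDF3 and became 12 with library size alone, 2 with TMM over protein-coding genes, 7 without a filter on low counts, and 1 with the length trend removed, with or without the replicate block. Depleted members for YTHDF3 (11) became 5 with library size alone, 7 without the filter and 7 with the length trend removed and the block. For YTHDF1, enriched members (3) became 6 without the filter, depleted members (14) became 22 with library size alone, and the median became −0.593 with library size alone, −0.441 with TMM over protein-coding genes, −0.511 with the length trend removed and −0.510 with that and the block. Between RIPs, members higher with YTHDF1 than YTHDF2 became 6 without the filter. Those higher with YTHDF1 than YTHDF3 became 1 with library size alone and with the length trend removed, with or without the block, and those lower became 15 with library size alone. Members higher with YTHDF2 than YTHDF3 became 0 with library size alone, without the filter and with the length trend removed, with or without the block. Those lower with YTHDF2 than YTHDF3 became 4 with DESeq2, 2 with its size factors, 9 with library size alone, 3 with TMM over protein-coding genes, 8 without the filter, and 2 with a minimum mean of 50, the block or the length trend removed, with or without the block. The other 107 of 141 values of this kind stayed within 1.5 times the count or within the spread of the medians. For these counts, and for those with the block or without 1 library given below, the shares of all tested genes are not given here. A change of the members cannot be told from a change over all genes. The causes were not tested.

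By the correlation of every same-numbered pair, the replicate numbers paired Input with the YTHDF3 RIP. Same-numbered YTHDF1 and YTHDF2 libraries had correlations of 0.0697 to 0.553. Differently numbered libraries also deviated together, with 0.568 for Input replicate 3 and YTHDF2 replicate 2, 0.471 for Input replicate 3 and YTHDF1 replicate 2 and 0.563 for YTHDF2 replicate 2 and YTHDF3 replicate 3, and the block rests on the numbers as given. The replicate block in the 4-group fit left 4 enriched and 8 depleted members for YTHDF3, 3 and 14 for YTHDF1 and 6 and 7 for YTHDF2. The fits of the YTHDF3 and Input libraries alone were added after seeing the data. As pairs they gave 19 enriched and 15 depleted members (36.5% and 32.3% of all tested genes). Unpaired they gave 7 and 9 (22.2% and 24.5%).

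Leaving out 1 library at a time gave ranges of −0.44 to −0.00506 for the median for the YTHDF1 RIP, −0.51 to −0.27 for the median for the YTHDF2 RIP, −0.12 to 0.18 for the median for the YTHDF3 RIP, 5 to 13 for members depleted in the YTHDF2 RIP, 5 to 12 for members depleted in the YTHDF3 RIP, 2 to 6 for members enriched in the YTHDF3 RIP, 0 to 1 for members higher in the YTHDF2 RIP than in the YTHDF3 RIP, 1 to 4 for members lower in the YTHDF2 RIP than in the YTHDF3 RIP. Signs also changed when 1 library was left out, with ranges of −0.0831 to 0.11 for Stx16 YTHDF3, −0.19 to 0.14 for Stx4a YTHDF2, −0.51 to 0.55 for Stx7 YTHDF1, −0.12 to 1.245 for Sv2b YTHDF1, −0.30 to 0.31 for Syn1 YTHDF1, −0.44 to 0.22 for Syn2 YTHDF1, −0.42 to 0.0944 for Syn2 YTHDF2, −0.0384 to 0.58 for Syn2 YTHDF3, −0.43 to 0.0571 for Syn3 YTHDF2, −0.31 to 0.37 for Syt1 YTHDF1.

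Over the named genes, 676 of 782 values under these settings kept their direction and their call, 46 lost a call, 26 gained one and 34 changed sign. No called value changed sign. Signs changed only for values that had not been called. With DESeq2, YTHDF3 values of Stx16 (0.0312) changed sign. With DESeq2 size factors, YTHDF3 values of Stx16 (0.0328) changed sign. With TMM over protein-coding genes, YTHDF1 values of Syt1 (−0.21), Syn1 (−0.17), Stx7 (−0.0581) changed sign. With library size alone, YTHDF1 values of Syt1 (−0.34), Syn1 (−0.33), Stx7 (−0.26), Syt11 (−0.0085) and YTHDF2 values of Stx4a (0.078) and YTHDF3 values of Stx1a (0.0832), Stx16 (0.32) changed sign. With the length trend removed, YTHDF1 values of Syt1 (−0.64), Syn3 (−0.54) and YTHDF2 values of Stx4a (0.21) and YTHDF3 values of Stx1a (0.11), Syn2 (−0.0456), Syt14 (−0.41), Stx16 (0.046) changed sign. With the length trend removed and the replicate block, YTHDF1 values of Syt1 (−0.60), Sv2b (−0.0346), Stx7 (−0.0516), Syn3 (−0.56) and YTHDF2 values of Syt14 (−0.00978), Stx4a (0.21) and YTHDF3 values of Stx1a (0.11), Syn2 (−0.0465), Syt14 (−0.41), Stx16 (0.0506) changed sign. With a minimum mean of 50, YTHDF1 values of Syt1 (−0.0683), Syn1 (−0.0379) changed sign. With no filter, YTHDF3 values of Stx16 (0.12) changed sign. With YTHDF3 and Input alone, unpaired, YTHDF3 values of Stx16 (0.0465) changed sign. With YTHDF3 and Input alone, paired, YTHDF3 values of Stx16 (0.0533) changed sign.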
